A study of Mus musculus with 24 samples.

Results

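Translational efficiency (TE) was compared between Rps6 het and Rps6 WT forelimbs of mouse embryos that lacked Trp53. TE is the level of ribosome-protected fragments (RPF, the stretches of RNA that ribosomes shield from RNase) relative to the level of total RNA of the same transcript. A TE change is therefore the RPF change minus the RNA change. The contrast is between 12 of the 24 libraries of the study, chosen by genotype alone: 3 RPF and 3 RNA libraries of Rps6 het, Trp53 null (Prx1Cre with Rps6lox/+ and Trp53-/-) and as many of Rps6 WT, Trp53 null (Rps6lox/+ and Trp53-/- with no Cre). All 4 groups of libraries thus carried a floxed Rps6 allele and no intact Trp53, and were taken at E10.5. The other 12 libraries, of the same Rps6 genotypes with Trp53 intact (Trp53+/+), entered the same fit, where they shared the filter and the estimate of the spread, and are the set beside which the Trp53 null result is described. Each replicate was a pool of limbs of 2 embryos of one genotype, and the RPF and RNA libraries with the same number were treated as coming from one pool.

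The product of Rps6 is part of the small subunit of the ribosome, and Trp53 encodes the transcription factor p53. Loss of one copy of a ribosomal protein gene disturbs ribosome assembly, which is known to stabilise p53 through unassembled ribosomal components that inhibit its ubiquitin ligase MDM2. p53 can lower protein synthesis through its targets, among them the gene of 4E-BP1, an inhibitor of the cap-binding initiation factor eIF4E. Limbs without p53 ask which part of the change in ribosome occupancy remains when this branch is missing. In Prx1Cre embryos the Cre recombinase is made in mesenchyme of the limb bud, so ectoderm, blood and other cells of the limb keep both Rps6 alleles. Since the control limbs had no Cre, effects of the Cre transgene and of Rps6 loss cannot be told apart.

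The 6 RPF libraries held 9935362 to 12333309 counts and the 6 RNA libraries 14291854 to 29104669. A level of 3 counts, the smallest taken as seen, was 0.243 to 0.302 CPM (counts scaled by the library total) in RPF and 0.103 to 0.210 CPM in RNA. Replicate pairs of one group differed by more than sampling noise, with a chi-square per degree of freedom of 1.78 to 17.1 over 12 pairs. RPF and RNA libraries of one pool deviated together from their group means, with correlations across transcripts of 0.149 to 0.326 in the 6 Trp53 null pools. Each of the 6 RPF libraries correlated best with the RNA library of its own number. The table identifies transcripts by Ensembl ID only, and 0 of the 21960 IDs matched the gene name tables used here. Transcripts are therefore given by ID, the loss of Rps6 and Trp53 and the markers of limb cell types were not checked, and the lists of pathway genes were not tested. Pool 2 of Rps6 WT, Trp53 null and pool 3 of Rps6 het, Trp53 null had been doubted in an earlier analysis of these data, which asked whether the labels of this pair were exchanged. That question was not tested here, the labels are used as given, and results are given with and without them where they moved.

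In Trp53 null limbs, TE differed between Rps6 het and Rps6 WT for few transcripts, and most of these were higher in Rps6 het. Of 12116 transcripts with enough counts in both RPF and RNA, 59 were called (adjusted p under 0.05 by edgeR's quasi-likelihood test, with a term for each pool), or 0.487% of those tested. TE rose in Rps6 het for 52 of them (0.429%) and fell for 7 (0.0578%). A further view of the same values is whether the 3 Rps6 het pools all lay on one side of the 3 Rps6 WT pools. This held with Rps6 het higher for 746 transcripts (6.16%) and with Rps6 het lower for 736 (6.07%), and it held for all 59 called transcripts, which the call makes likely. The changes were small: the 52 were 0.21 to 0.68 higher on the log2 scale, with a median of 0.32, or 24.5% higher. TE of the 7 fell by 22.3% at the median, with log2 changes between −0.69 and −0.27. Over all transcripts tested the median TE change was 0.00061 and the median standard error (SE) 0.10, both on the log2 scale. The unadjusted p-value was under 0.05 for 1019 (edgeR's quasi-likelihood test). Counts were scaled within each library kind so that the typical transcript shows little change. The median near 0 follows from this, and a TE shift shared by all transcripts could not be seen. In limb tissue as a whole, a change in the share of a cell type and a change within cells cannot be told apart.

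The number of called transcripts depended on the libraries in the fit and on the pools of Rps6 WT, Trp53 null. With the 12 Trp53 null libraries fitted alone, 24 transcripts were called (22 higher and 2 lower), and 8 when these were not paired by pool. With no filter on low counts the number was 139. Without pool 2 of that group 10 transcripts were called, and without pool 1 it was 23, while leaving out any of the other 4 Trp53 null pools gave 43 to 68. With both doubted pools left out, 10 were called (9 higher and 1 lower). In these 7 refits the median log2 TE change of the 52 lay between 0.28 and 0.35. Since the pools of all 59 lay apart, leaving out a pool could not turn their direction. Without the pairing of RPF and RNA libraries by pool, 32 transcripts were called, 28 higher and 4 lower. At the threshold itself, the last transcript inside had a log2 TE change of 0.24 and an adjusted p of 0.0495, and the first outside had −0.23 and 0.0502 (edgeR's quasi-likelihood test).

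The 59 transcripts moved as groups in each pool. Relative to the mean of the Rps6 WT, Trp53 null pools, the median log2 TE of the 52 was 0.28, 0.31 and 0.36 in the 3 Rps6 het, Trp53 null pools. In the 3 Rps6 WT, Trp53 null pools it was −0.03, −0.04 and 0.06. The Rps6 het pools were thus all above the Rps6 WT pools, and the narrowest gap lay between pool 1 of Rps6 het and pool 3 of Rps6 WT. For the 7 transcripts with a lower TE the medians were −0.37, −0.30 and −0.42 in Rps6 het and 0.01, 0.06 and −0.03 in Rps6 WT, again without overlap. These medians describe transcripts chosen on the same values and carry no test.

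**Figure D1:**
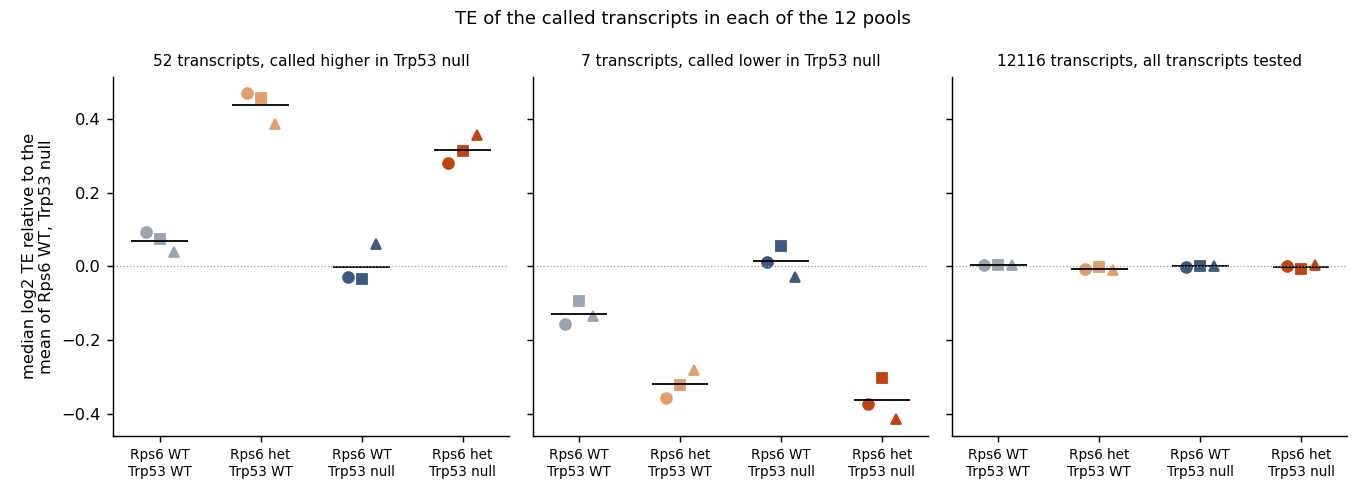
Median log2 TE of the 52 transcripts called higher, the 7 called lower and all 12116 tested in Trp53 null, for each of the 12 pools (y axis, relative to the mean of Rps6 WT, Trp53 null; x axis, genotype; circle, square and triangle, pools 1, 2 and 3; bar, mean of 3 pools). In the Trp53 null pools the 52 lie between 0.28 and 0.36 in Rps6 het and between −0.04 and 0.06 in Rps6 WT. The medians over all transcripts lie near 0 in every pool, which follows from the scaling within each library kind.

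TE of ENSMUST00000001672.11 rose more than that of any other called transcript, on top of a rise of its RNA. Its RPF level was 18.6, 15.0 and 19.3 CPM in the 3 Rps6 WT, Trp53 null pools and 51.5, 65.7 and 53.8 CPM in the 3 Rps6 het, Trp53 null pools. Its RNA level was 58.6, 60.7 and 64.9 CPM in Rps6 WT and 119.7, 125 and 123 CPM in Rps6 het. Both kinds of library were higher in every Rps6 het pool, RPF by a wider margin than RNA. The ratio of RPF to RNA was 0.316, 0.247 and 0.297 in Rps6 WT and 0.430, 0.524 and 0.437 in Rps6 het, or 0.287 ± 0.0361 and 0.464 ± 0.0523 (SD, n = 3). The log2 TE change was 0.68 ± 0.091 (SE), with an adjusted p of 0.000963 by edgeR's quasi-likelihood test, from an RPF change of 1.69 less an RNA change of 1.00. Of the 59 it was the only transcript called higher in both RPF and RNA. Such ratios compare a transcript between pools and not transcripts with each other, because the title of the deposited table names coding sequences for the footprints and not for RNA, and the stretch over which RNA was counted is not given in the sources used here.

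ENSMUST00000108430.9, an abundant transcript, rose in TE with no called change in RNA. RPF stood at 278, 292 and 275 CPM in Rps6 WT, Trp53 null and at 339.9, 368 and 384 CPM in Rps6 het, Trp53 null. RNA stood at 376, 363 and 346 CPM in Rps6 WT and at 352, 333 and 343 CPM in Rps6 het. The RPF levels did not overlap between the genotypes, while the RNA levels did. The ratios were 0.740, 0.804 and 0.797 in Rps6 WT and 0.964, 1.11 and 1.12 in Rps6 het, with means of 0.780 ± 0.0350 and 1.06 ± 0.0864 (SD, n = 3). The log2 TE change was 0.45 ± 0.062 (SE), with an adjusted p of 0.000963 by edgeR's quasi-likelihood test. RPF alone rose by 0.37 on the log2 scale (adjusted p = 6.83e-05) and the RNA change was −0.08 (adjusted p = 0.536), both by the same edgeR test on each library kind. This was the pattern of 41 of the 52: RPF called higher, RNA not called.

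ENSMUST00000112096.8 fell in TE, with a called fall in RPF (log2 change −0.54) and no called change in RNA (−0.07). Its RPF level was 50.8, 46.5 and 47.3 CPM in Rps6 WT, Trp53 null and 33.9, 31.6 and 33.5 CPM in Rps6 het, Trp53 null. Its RNA level was 146, 136 and 136 CPM in Rps6 WT and 137, 137 and 125 CPM in Rps6 het, with overlap between the genotypes. The ratio lay in a narrow range in Rps6 WT, at 0.348, 0.341 and 0.347, and lower in each Rps6 het pool, at 0.247, 0.230 and 0.269. Means were 0.345 ± 0.00407 and 0.249 ± 0.0194 (SD, n = 3). The log2 TE change was −0.47 ± 0.070 (SE), with an adjusted p of 0.0012 by edgeR's quasi-likelihood test.

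ENSMUST00000188090.6 had the most negative TE change of the 7 and rested on fewer reads, with 180 to 209 RPF counts in the Rps6 WT, Trp53 null pools and 81 to 105 in the Rps6 het, Trp53 null pools. RPF was 16.8, 16.5 and 15.3 CPM in Rps6 WT and 6.68, 8.95 and 9.75 CPM in Rps6 het. RNA was 105, 99.9 and 114 CPM in Rps6 WT and 86.5, 84.9 and 94.3 CPM in Rps6 het. Neither kind of library overlapped between the genotypes, though the RNA change of −0.26 on the log2 scale was not called (adjusted p = 0.200 by edgeR's quasi-likelihood test). The ratios were 0.160, 0.165 and 0.135 in Rps6 WT and 0.0772, 0.105 and 0.103 in Rps6 het, or 0.153 ± 0.0163 and 0.0954 ± 0.0157 (SD, n = 3). The log2 TE change was −0.69 ± 0.129 (SE), with an adjusted p of 0.00859 by edgeR's quasi-likelihood test. Over 18 refits the change of ENSMUST00000188090.6 was −0.78 to −0.55, and it was not called in 5, where the adjusted p reached 0.105. Those 5 left out pool 1 or pool 2 of Rps6 WT, pool 1 of Rps6 het or both doubted pools, or used the Trp53 null libraries alone without the pairing by pool. The other named transcripts were called in 18 of 18 refits.

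**Figure D2:**
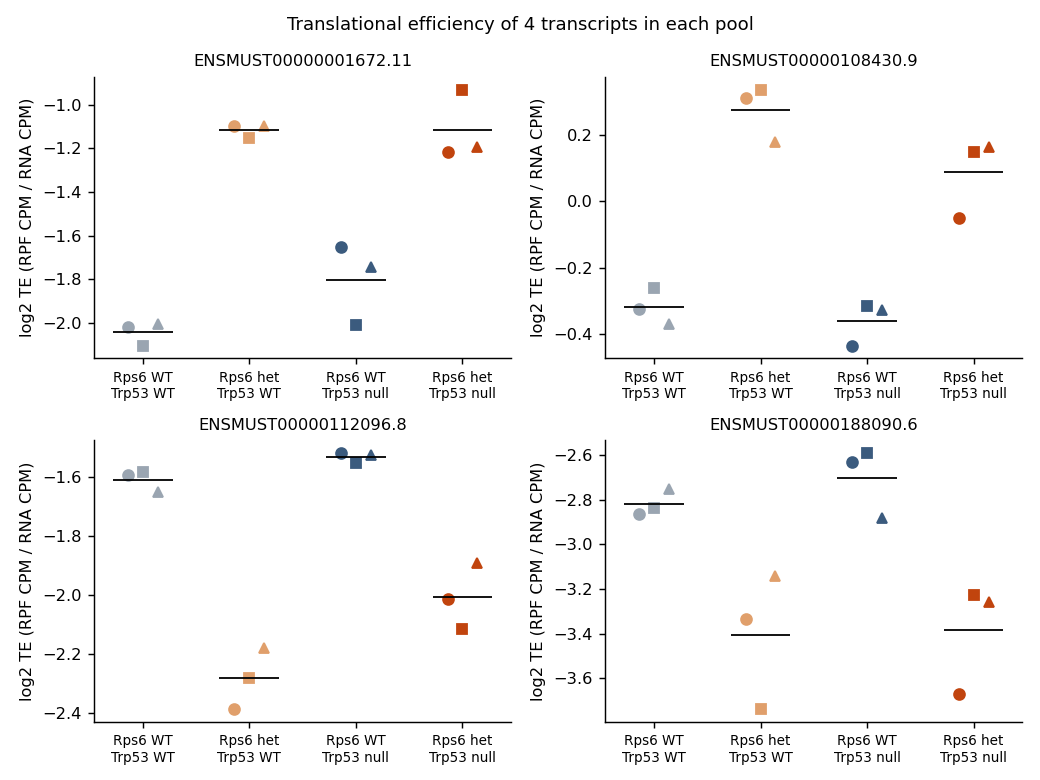
Log2 ratio of RPF to RNA (CPM over CPM, y axis, a separate scale in each panel) of the 4 named transcripts in each of the 12 pools, by genotype (x axis; circle, square and triangle, pools 1, 2 and 3; bar, mean of 3 pools). In Trp53 null the Rps6 het pools lie apart from the Rps6 WT pools in each panel, above them in the upper panels and below them in the lower panels.

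Among the 52 the change in footprints was mostly larger than that in RNA. All counts in this paragraph come from the libraries that chose the 52 and the 7, so they describe how the changes are made up and support nothing further. The median RPF change of the 52 was 0.24 and the median RNA change −0.09, both on the log2 scale, against −0.00028 and −0.00048 over all transcripts tested. RPF was called higher without an RNA call for 41 of the 52, where the share over all transcripts was 0.603%. RPF calls in the upward direction made up 0.619% of the transcripts tested and downward calls 0.289%, and RNA calls made up 0.0248% and 0.0578%. One other pattern was a fall of RNA that footprints did not follow. For 3 of the 52 RNA was called lower and RPF was not called, where the share over all transcripts was 0.0413%. In 1 transcript both fell, RNA by 0.75 and RPF by 0.53 on the log2 scale, and in 6 neither was called alone. Over all transcripts both were called lower in 0.0165% and neither was called in 99%. The RNA change was negative in 50 of the 52 and in 6086 of the 12116 tested. RPF enters TE with a plus and RNA with a minus sign, so a choice by TE favours both. Of the 7 with a lower TE, all 7 had a negative RPF change, 3 were called lower in RPF and not in RNA, and 4 were called in neither. Over all 12116 the RPF change was negative in 6072. RPF was called lower without an RNA call in 0.272%, and neither was called in 99%.

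As a description of the same chosen transcripts, the 52 held 4.64 ± 0.0903% of the RPF counts in Rps6 WT, Trp53 null and 5.23 ± 0.107% in Rps6 het, Trp53 null (SD, n = 3). Of the RNA counts they held 4.27 ± 0.129% and 3.99 ± 0.0148%. The RPF share was higher in each Rps6 het pool, at 5.11% to 5.32% against 4.54% to 4.72%, while the RNA share was lower in each, at 3.98% to 4.01% against 4.15% to 4.41%, a split that follows from the choice of the 52.

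**Figure D3:**
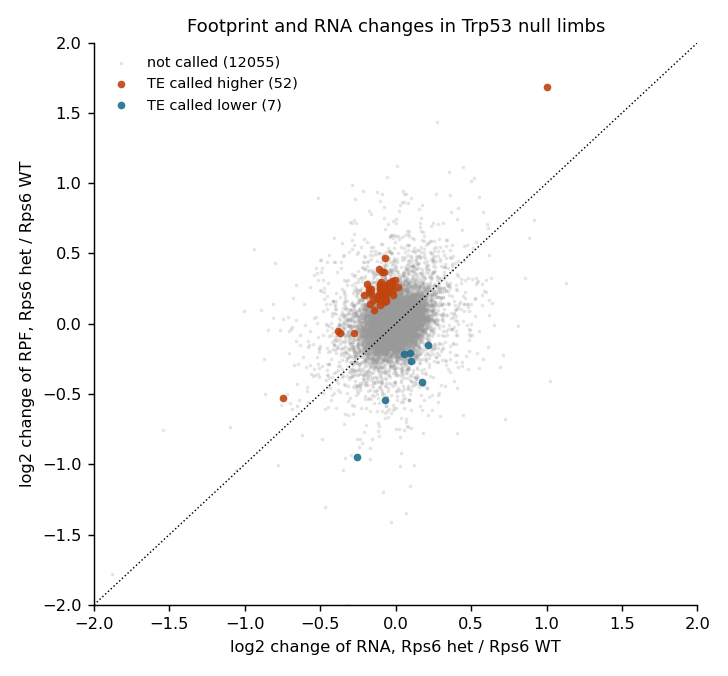
Log2 change in RNA (x axis) and in RPF (y axis) of Rps6 het against Rps6 WT in Trp53 null for the transcripts tested (points; orange, TE called higher; blue, TE called lower; dotted line, equal change in both). Most of the 52 lie above the line at an RNA change just under 0, and 2 transcripts outside the axes, which end at 2, are not drawn.

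Transcripts with a called rise in TE were mostly abundant. Their RNA level in Rps6 WT, Trp53 WT limbs had a median of 662 CPM (37.2 to 1915), against 31.1 CPM over all transcripts tested, on a scale that is not corrected for length. Ranked by that level, taken from libraries outside the contrast but within the fit, 18 of the 52 were among the first 100 transcripts and 43 among the first 500. Among the first 100, TE was called higher for 18% and lower for 1 transcript, and among ranks 101 to 500 it was called higher for 6.25% and lower for none (0 calls). From rank 501 to 2000 there were 7 called higher and 2 lower, from 2001 to 6000 there were 2 and 3, and below that 0 and 1. The median of the abundant transcripts was close to 0. The log2 TE change had a median of 0.02 among the first 100, where 60 were positive, and of −0.02 among ranks 101 to 500. The upper quartile was 0.21 in the first 100, 0.04 in ranks 101 to 500 and 0.03 in ranks 501 to 2000.

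Precision moved with abundance. The median SE of the log2 TE change was 0.052 in the first 100 transcripts, 0.056 in ranks 101 to 500, 0.060 in ranks 501 to 2000, 0.079 in ranks 2001 to 6000 and 0.17 beyond. A change of the size seen in the 52 was therefore harder to detect among transcripts of low abundance, and the part of depth in the count by rank was not tested. The 7 transcripts with a lower TE had a median RNA level of 111 CPM in Rps6 WT, Trp53 WT limbs, between 22.4 and 1111.

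**Figure D4:**
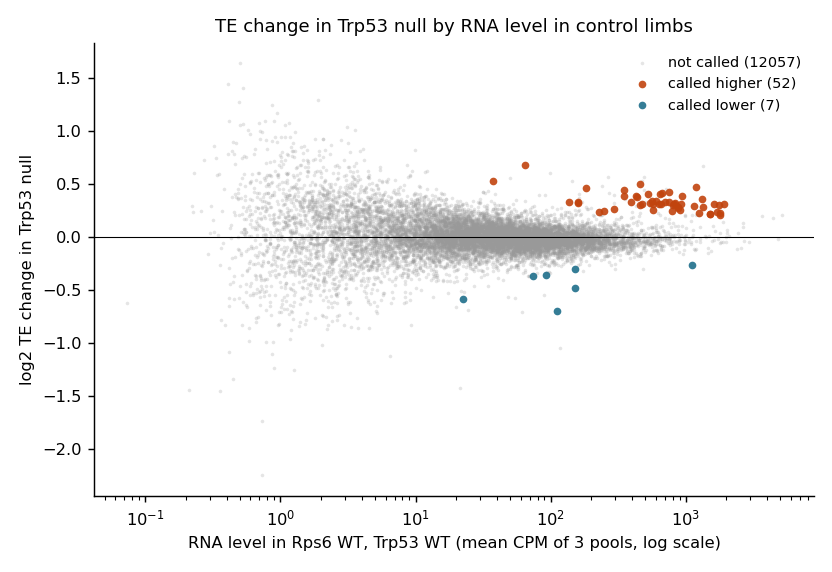
Log2 TE change of Rps6 het against Rps6 WT in Trp53 null (y axis) by RNA level in Rps6 WT, Trp53 WT limbs (x axis, mean CPM of 3 pools, log scale) for the 12116 transcripts tested (orange, called higher; blue, called lower). The scatter narrows with rising RNA level, and most of the 52 called higher lie above 100 CPM.

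The same 59 transcripts were then read in limbs with Trp53, whose pools are other embryos. The TE change was positive there in 52 of the 52, where 5808 of all 12116 were positive. In Trp53 WT 48 of the 52 were called higher, where 1.04% of all transcripts were. Such calls were more frequent among abundant transcripts, to which most of the 52 belong. They numbered 26 among the first 100 by RNA level and 35 among ranks 101 to 500. The 3 Rps6 het pools lay above the 3 Rps6 WT pools for 50 of the 52, against 8.65% of all transcripts. Their median change was 0.37 on the log2 scale (0.11 to 0.93), beside 0.32 without Trp53. The change was larger in size with Trp53 for 55.6% of all transcripts and for 36 of the 52 (69.2%). Against the mean of Rps6 WT, Trp53 null, their medians were 0.47, 0.46 and 0.39 in the Rps6 het, Trp53 WT pools and 0.09, 0.07 and 0.04 in the Rps6 WT, Trp53 WT pools. The 7 transcripts with a lower TE were negative with Trp53 as well, where 6308 of all 12116 were. Their median there was −0.16, with values from −0.67 to −0.02. TE of 2 of the 7 was called lower there, where 2.38% of all transcripts were, and the pools of 3 of the 7 lay apart on that side, where those of 12.1% did.

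Each named transcript had a change of the same sign in both backgrounds. The ratio of RPF to RNA of ENSMUST00000001672.11 was 0.241 ± 0.00909 in Rps6 WT, Trp53 WT and 0.461 ± 0.0102 in Rps6 het, Trp53 WT, and that of ENSMUST00000108430.9 was 0.802 ± 0.0299 and 1.21 ± 0.0701 (SD, n = 3). For ENSMUST00000112096.8 it was 0.327 ± 0.00821 and 0.205 ± 0.0147, and for ENSMUST00000188090.6 it was 0.141 ± 0.00563 and 0.0947 ± 0.0194. The log2 TE changes with Trp53 were 0.93, 0.59, −0.67 and −0.54 in this order. The difference between the backgrounds was not called for any of the 4, and for ENSMUST00000001672.11 it was −0.25 ± 0.130 (SE; Trp53 null minus Trp53 WT) with an adjusted p of 0.540 by edgeR's quasi-likelihood test.

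With Trp53, TE was called for 414 transcripts (3.42%), 126 higher and 288 lower. Leaving out single Trp53 WT pools moved this count to 214 or 171 without pool 2 or pool 3 of Rps6 WT, and to 211 or 185 without pool 1 or pool 3 of Rps6 het. Calls shared by both backgrounds numbered 50, all in the same direction, which is 84.7% of the Trp53 null calls and 12.1% of the Trp53 WT calls. The 9 transcripts called without Trp53 and not called with it include no called difference between backgrounds. Over all 59, the difference was called for 0 by edgeR's quasi-likelihood test, where the share over all transcripts was 0.347%. A count of 0 among 59 is near that share and does not show that the changes are equal in both backgrounds. By the same test 13 of the 59 had an unadjusted p-value under 0.05, a larger share than the 1247 of all 12116. The Trp53 null values that chose the 59 also enter this difference. DESeq2's Wald test, limma-voom and limma on TE per pool also called 0.

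The transcripts called in Trp53 WT were then read in Trp53 null. The Trp53 null pools enter neither side of the Trp53 WT contrast, but share its filter and estimate of spread. Of the 126 with a higher TE, 116 had a positive change without Trp53 (against 6085 of all 12116), with a median log2 TE change of 0.21. Among the 126, 48 were called higher, where 0.429% of all transcripts were. The pools of 77 lay apart on that side, where those of 6.16% of all transcripts did. Without both doubted pools 118 of the 126 were positive, with a median of 0.20, and 9 were called. In that refit 10 of all 12208 transcripts tested were called.

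Of the 288 transcripts with a lower TE in Trp53 WT, 141 had a negative and 147 a positive change in Trp53 null, with a median log2 TE change of 0.0031. TE was called lower for 2 of them, which is 0.694% beside the 0.0578% of all transcripts. The pools of 21 lay apart on that side, which is 7.29% beside the 6.07% of all transcripts. With Trp53 the median of the 288 was −0.35. In Trp53 null 1 pool set the balance of signs: against the mean of Rps6 WT, Trp53 null, the median of the 288 was −0.06, −0.06 and 0.13 in the Rps6 het pools and −0.04, 0.02 and 0.02 in the Rps6 WT pools. Pool 3 of Rps6 het was the high value. Without it 228 of the 288 were negative, with a median of −0.06, and without both doubted pools 221 were negative, also with a median of −0.06. Without pool 1 or pool 2 of Rps6 het, 108 and 107 were negative. In the 7 refits that left out Trp53 null pools, 1 to 3 of the 288 were called.

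**Figure D5:**
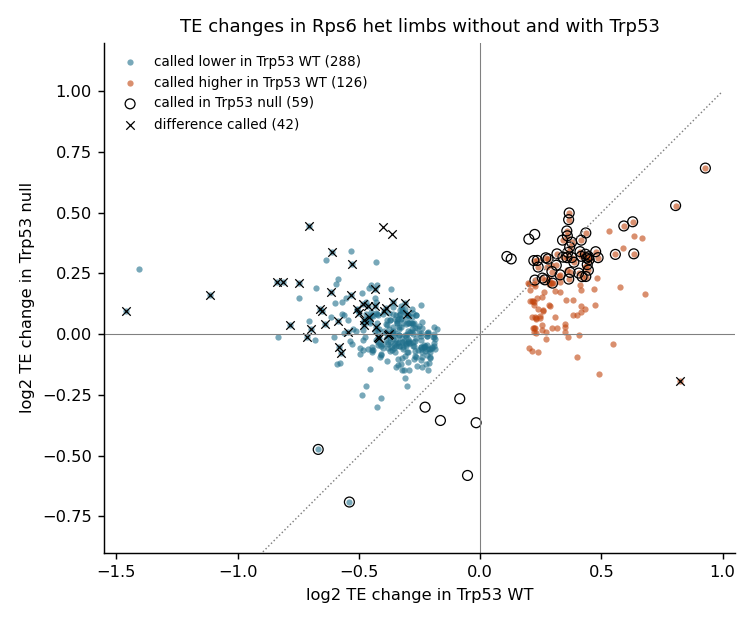
Log2 TE change of Rps6 het against Rps6 WT with Trp53 (x axis) and without it (y axis) for the transcripts called in Trp53 WT, in Trp53 null or for the difference (orange and blue, called higher and lower in Trp53 WT; open circles, called in Trp53 null; crosses, difference called; dotted line, equal change). The 52 called higher in Trp53 null lie at the upper right, while most of the 288 called lower in Trp53 WT lie near 0 on the y axis.

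The difference between the TE changes in Trp53 null and in Trp53 WT was called for 42 transcripts (0.347%), with a more positive change in Trp53 null for 41 (0.338%) and a more negative one for 1 (0.00825%). Of the 41, 39 were called lower in Trp53 WT, where 2.38% of all transcripts were. The median log2 TE change of the 41 was −0.51 in Trp53 WT and 0.10 in Trp53 null. The RNA of 33 of the 41 was called higher in Rps6 het, Trp53 WT, where 14.2% of all transcripts were. For 26 of the 41 RNA was called higher and RPF was not called, where the share over all transcripts was 6.06%. The median RNA change of the 41 with Trp53 was 0.48 and their median RPF change −0.03 on the log2 scale. Without Trp53 these medians were −0.08 and −0.00098. All of these values enter the difference that chose the 41, and they are given as a description. No TE change of the 41 was called in Trp53 null by edgeR's quasi-likelihood test (0 calls). DESeq2, limma-voom and limma on TE per pool also called 0. Over all transcripts 0.487% were called, so 0 of 41 is near that share and does not show that a change is absent. By edgeR's quasi-likelihood test 6 of the 41 had an unadjusted p-value under 0.05, a larger share than the 1019 of all 12116. The 1 transcript with a more negative change in Trp53 null had a log2 TE change of 0.82 with Trp53 and −0.19 without it.

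Pool 3 of Rps6 het, Trp53 null stood apart for the 41 too. Their medians against Rps6 WT, Trp53 null were 0.02, −0.04 and 0.25 in the Rps6 het, Trp53 null pools. Without pool 3 of Rps6 het their median change in Trp53 null was 0.0076, with 23 positive and 18 negative, and 28 transcripts were called for the difference. Without both doubted pools the median was −0.0081. Counts of the difference ranged widely when other pools were left out. Without pool 1, 2 or 3 of Rps6 WT, Trp53 WT it was called for 24, 19 and 14 transcripts, and without pool 1, 2 or 3 of Rps6 het, Trp53 WT for 15, 109 and 13. Without pool 1 or 2 of Rps6 WT, Trp53 null it was called for 15 and 19, and without pool 1 or 2 of Rps6 het, Trp53 null for 77 and 145. Without the pairing by pool 12 were called.

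Over all transcripts the TE changes of both backgrounds were weakly correlated. Over the 12116 transcripts Pearson's correlation of the log2 TE changes was 0.022 and Spearman's 0.048, and over the 2000 transcripts with the most RNA in Rps6 WT, Trp53 WT they were 0.26 and 0.20. These are descriptions across transcripts of 12 pools. No pool is shared by the changes compared, but the ranks of the 2000 come from pools that also enter the change with Trp53, and transcripts of low depth scatter more in both.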

How the data were processed

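RPF and total RNA were sequenced from pooled E10.5 mouse forelimbs. The authors deposited raw whole-number counts per transcript in one table. Bowtie2, UMI-tools, GRCm38 and mm10 are named in the submitters' processing notes, without roles, and read filters, the annotation release and whether reads were counted by molecular identifier are not given in the sources used here. The level of 3 counts covers counting error only. CPM values were computed here, on TMM-scaled totals within each library kind.

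Transcripts passing edgeR 4.0.16 filterByExpr (minimum count 10, minimum total 15) in RPF and in RNA were kept, since a transcript without footprints has no efficiency to test. TE was tested in R 4.3.3 with edgeR's quasi-likelihood test over all 24 libraries, with 1 term for each of the 12 pools and an RPF term per genotype (8 residual degrees of freedom), and p-values had a Benjamini-Hochberg adjustment over 12116 transcripts. RPF and RNA were also fitted apart, without covariates. SE were derived from the F statistic. The pairing comes from the protocol, in which both libraries are parts of the same lysates. Same-numbered libraries of the 12 pools correlated at 0.111 to 0.387, and 12 of 12 correlated best with their own pool. The main fit did not pair pools across genotypes by number. The labels do not say whether a number marks a batch shared across genotypes.

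The named transcripts were the first 2 higher and 2 lower by p-value among called transcripts whose pools did not overlap. The comparison, rules and sets were chosen with earlier results of these data known. Alternatives used DESeq2 1.42.0, limma 3.58.1, other filters and scalings, and omitted pools. The fit was also run on simulated counts. These had the same spread in RPF and RNA and no outlying pool, so they do not show how well the calls hold in these data. Near-identical or overlapping transcripts may share reads, which was not checked.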

Additional observations from a re-analysis of the deposited data

Results flagged for a closer look

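The TE change of Rps6 het against Rps6 WT differed between Trp53 null and Trp53 WT limbs for 42 transcripts by a test of the difference itself (edgeR's quasi-likelihood test), 41 of them with a more positive change in Trp53 null. Left-out pools moved this count to between 13 and 145.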

How the results depend on the processing

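Of the 59 TE calls in Trp53 null, the count stayed within 1.5 times under DESeq2 size factors (60), library totals alone (51), a filter over all libraries together (57), DESeq2's Wald test (71), limma-voom (66), limma on TE per pool (60) and a replicate block within RPF beside the pool (61). It was 32 with no pairing by pool, 139 with no filter on low counts and 24 with the Trp53 null libraries only. With these libraries and no pairing by pool it was 8. It was 10 without both doubted pools, and 10 to 68 with each pool left out in turn. The 414 calls with Trp53 became 190 with no pairing by pool and 171 to 482 with each pool left out. The 42 calls of the difference became 12 with no pairing by pool, 222 with no filter and 24 with limma on TE per pool. They became 72 with the added replicate block within RPF, and 13 to 145 with each pool left out. In Trp53 null, 110 transcripts were called in RPF and 60 to 92 with each pool left out (60 and 61 without pools 1 and 2 of Rps6 WT, 72 without pool 3 of Rps6 het). In RNA 10 were called and 4 to 47 with each pool left out (5 without pool 2 of Rps6 WT, and 4, 47 and 5 without pools 1, 2 and 3 of Rps6 het). The cause of these moves was not tested. The added block, the fit without both doubted pools and the RPF and RNA refits were chosen after seeing the data, and the trend in limma on TE per pool was corrected from mean TE to mean level after the first version had given no calls. With 3 pools a group and a median SE of 0.10, small TE changes of transcripts with few footprints were not detectable.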
